A study of Mus musculus with 8 samples.

Results

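The Notch genes described here are 10 genes: the ligands Dll4, Jag1 and Jag2, the receptors Notch1, Notch2 and Notch4, the transcription factor Rbpj, and the targets Hes1, Hey1 and Hey2. They were chosen by name. Every probe set annotated with exactly 1 gene symbol equal to one of these names was kept, which gave 11 of the 41345 probe sets of the array, and 10 of the 22180 genes so named on it. Each gene had 1 probe set except Rbpj, which had 2. The RNA came from CD45-CD31+ brain endothelial cells (BECs) of 12-week-old male FVB/NJ mice, each cell isolate from 1 animal and each hybridized to 1 Affymetrix Mouse Gene 2.0 ST array. The 4 SAH mice had received 80 μL of blood through a needle into the prechiasmatic space, a model of subarachnoid haemorrhage. The 4 Sham mice had the needle inserted without blood. Cells were taken from left cerebral hemispheres at 24 h in both groups, by magnetic depletion of myelin and of CD45+ cells and then selection for CD31. The meninges and their vessels were removed first, a step meant to limit cells of larger arteries in the isolates.

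Notch signalling passes between touching cells. A ligand of the Delta-like or Jagged family on one cell pulls on a Notch receptor of its neighbour, the receptor is cleaved, and its intracellular part enters the nucleus, where it joins RBPJ and turns on genes of the HES and HEY families. In growing vessels DLL4 on tip cells restrains sprouting of the neighbouring stalk cells, and NOTCH1, NOTCH4, HEY1 and HEY2 take part in giving arteries their identity. JAG1 can act against DLL4 where Fringe enzymes have added sugars to the receptor.

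Of the 10 Notch genes, Dll4 rose after SAH, to 1.73-fold of the Sham level, and no gene fell. Hes1 and Hey1 were at 71.3% and 70.8% of Sham, with unadjusted p under 0.05 and adjusted p of 0.210 and 0.282 in limma. The other 7 genes lay within 0.13 of Sham on the log2 scale, and the 95% interval of each lay inside a change of 0.5 in either direction. The 1 gene called of 10 stands beside 3.18% of the 25341 probe sets with a gene symbol that passed the same test, an adjusted p under 0.05 in limma, of which 1.90% were higher and 1.28% were lower. An unadjusted p under 0.05 was found for 3 of 10 genes and for 14.1% of all probe sets. The median change of the 10 genes was -0.01 on the log2 scale, beside -0.02 over all probe sets tested.

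All values are log2 RMA intensities, so a difference of 1 is a doubling, and they serve to compare arrays within a probe set, not to rank genes by amount. The 8 arrays had medians between 4.23 and 4.30. Every one of the 10 genes had a mean above the median of the tested probe sets, which was 4.52. The endothelial markers Cdh5, Pecam1 and Cldn5 were present in both groups and averaged 11.17, 10.66 and 9.71 in SAH arrays and 10.95, 10.30 and 9.55 in Sham arrays. Of 16 endothelial markers, 0 were higher and 2, Tek and Kdr, were lower, and 7 had an unadjusted p under 0.05 in limma. The median change of the 16 was -0.02.

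**Figure D1:**
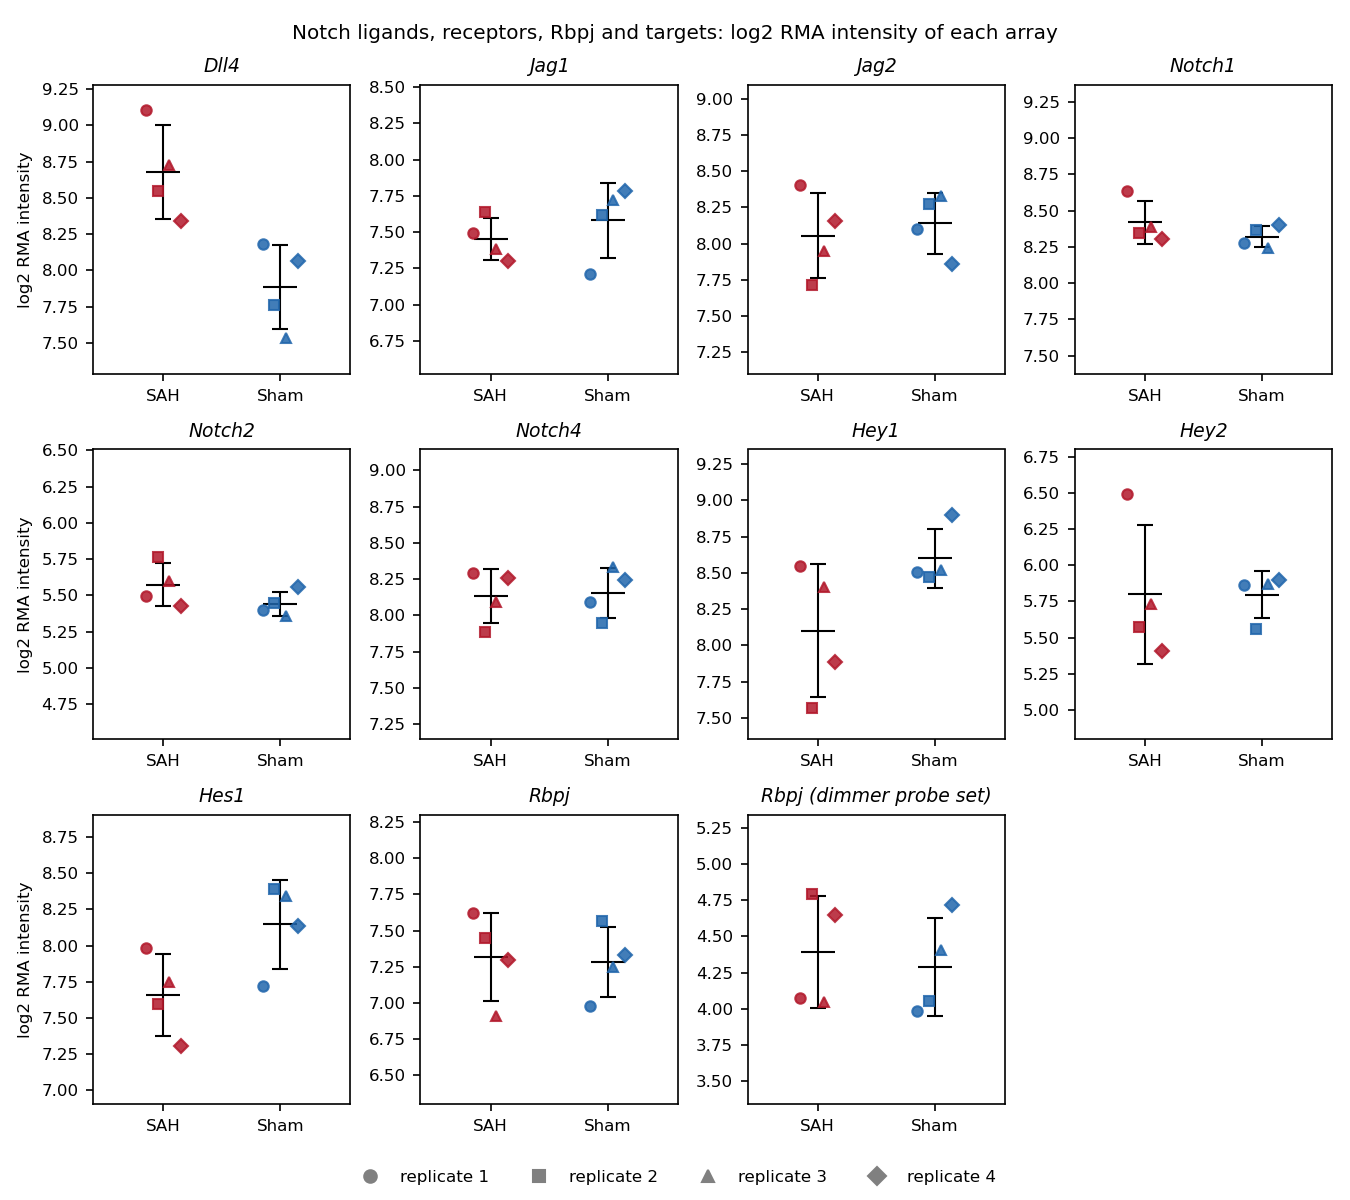
RMA intensity on the log2 scale (vertical axes) of the 11 Notch probe sets in each of the 4 SAH (left) and 4 Sham arrays (right), with group means and SD. Dll4 is the gene whose groups do not overlap, with SAH arrays between 8.34 and 9.11 and Sham arrays between 7.54 and 8.18.

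Dll4, the Delta-like ligand of tip cells and arterial endothelium, had log2 intensities of 9.11, 8.54, 8.72 and 8.34 in SAH 1 to 4, against 8.18, 7.76, 7.54 and 8.07 in Sham 1 to 4. All 4 SAH arrays stood above all 4 Sham arrays, with SAH 1 the highest and Sham 3 the lowest. Group means were 8.68 ± 0.33 in SAH BECs and 7.88 ± 0.29 in Sham BECs (SD, n = 4 each), a change of 0.79 on the log2 scale with an SE of 0.18 and a 95% interval of 0.39 to 1.19 (adjusted p = 0.0397, limma). Groups that do not overlap were found for 1 of the 10 genes and for 8.99% of all probe sets tested. The adjusted p was close to the threshold. The methods' t-test gave 0.216 for Dll4 after adjustment.

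The call for Dll4 depended on single arrays. Its change was 0.65 without SAH 1, 0.84 without SAH 2, 0.78 without SAH 3, 0.75 without Sham 2, 0.68 without Sham 3 and 0.85 without Sham 4, and in each of these 6 fits the adjusted p lay above 0.05, up to 0.112. It kept its call without SAH 4, at 0.91, and without Sham 1, at 0.89. The direction was the same in all 8 fits.

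A second probe set is annotated to both Dll4 and Gm14207 and so was not counted for Dll4. It averaged 5.73 ± 0.47 in SAH BECs and 5.48 ± 0.11 in Sham BECs (SD, n = 4 each), a change of 0.25 with an SE of 0.20 (adjusted p = 0.651, limma). SAH and Sham arrays overlapped on this probe set.

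The sequence before the start of Dll4 is shown because Dll4 is the member that passed the test. The 150 bases next to its start in the RefSeq annotation of GRCm38.p6, chr2:119325634-119325783 on the plus strand, hold neither GTGGGAA nor GTGAGAA on either strand, which are the letters of the core motif of RBPJ, nor did the rest of the 250 bases searched.
Dll4: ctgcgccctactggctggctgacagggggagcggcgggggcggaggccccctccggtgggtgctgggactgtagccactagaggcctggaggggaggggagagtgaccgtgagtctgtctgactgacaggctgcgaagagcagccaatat
Over all 32851 promoters of that annotation, 9.01% held at least 1 of these motifs in these 250 bases, GTGGGAA in 5.42% and GTGAGAA in 3.83%. Of the 10 Notch genes, 8 had a promoter in the table, and 1, Hey2, held a motif.

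Markers of some other cell types moved in the same direction as Dll4, and those of others did not. Of 8 lymphocyte and 9 oligodendrocyte markers, 0 were called by limma and 0 had an unadjusted p under 0.05. Their median changes were 0.05 and 0.01. Sums of smooth muscle markers were lower after SAH, as given below. Of 16 microglia and macrophage markers, 4 rose (Ctss, C1qc, Tyrobp and Fcer1g) and 10 had an unadjusted p under 0.05 in limma, with a median change of 0.57, and the summed linear intensity of the list was 1089 to 1529 in SAH arrays and 752 to 901 in Sham arrays. Those groups do not overlap. Fcer1g, 1 of the 4 that rose, changed by 0.98. P2ry12, Tmem119 and Aif1, markers of microglia, were not called. They averaged 5.75, 5.28 and 4.44 in SAH arrays and 5.42, 5.22 and 4.41 in Sham arrays. Ptprc, which encodes CD45, was not called either and averaged 3.62 in SAH arrays and 2.95 in Sham arrays, below the array medians. These examples were picked after their values were seen and do not stand for the list, whose median change is given above. Of 11 pericyte markers 1 rose (Kcnj8) and 5 had an unadjusted p under 0.05 in limma, with a median change of 0.26 and sums of 5783 to 7258 in SAH arrays and 5492 to 6185 in Sham arrays. Of 10 neutrophil markers 2 rose (S100a8 and S100a9), with sums of 178 to 410 in SAH arrays and 151 to 165 in Sham arrays, and of 8 fibroblast markers 1 rose (Dcn), with sums of 195 to 240 in SAH arrays and 162 to 186 in Sham arrays. The part of these cells in the change of Dll4 was not tested. In RNA of whole isolates, fewer cells of a type and less RNA per cell cannot be told apart.

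The arterial markers did not move together. Of 11 measured, 1 was higher (Mgp) and 3 were lower (Vegfc, Gkn3 and Stmn2), with a median change of -0.06. An unadjusted p under 0.05 in limma was found for 5 of the 11, beside 14.1% of all probe sets. Their summed linear intensity was 2439 to 3350 in SAH arrays and 1918 to 2920 in Sham arrays, which overlapped. Gkn3, a marker of brain arteries, averaged 5.26 ± 0.60 in SAH BECs and 7.56 ± 0.78 in Sham BECs (SD, n = 4 each), a change of -2.30 with an SE of 0.37 (adjusted p = 0.00662, limma). Bmx and Gja5, which mark arterial endothelium, changed by -0.02 and 0.12 and did not pass the test.

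The genes with the profile most like that of Dll4 were sought among 12185 genes with 1 symbol and a mean at or above the table median, by the root mean square difference of centred log2 values over the 8 arrays. They were Ccl9, a chemokine, at 0.115, Daam1, an actin regulator of the formin family, at 0.120, and Fcer1g, a signalling chain of Fc receptors in myeloid cells, at 0.133. Their own changes after SAH were 0.76, 0.95 and 0.98 on the log2 scale, beside 0.79 for Dll4. The search used the same 8 arrays with the group difference left in, so similar changes follow from how these genes were chosen.

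The Jagged ligands stayed within their spread. Jag1 had log2 intensities of 7.49, 7.64, 7.38 and 7.30 in SAH 1 to 4, against 7.21, 7.62, 7.72 and 7.78 in Sham 1 to 4. The highest 2 values were Sham arrays, but so was the lowest, and the groups overlapped. The change was -0.13 with an SE of 0.14 and a 95% interval of -0.43 to 0.18 (adjusted p = 0.765, limma).

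Jag2, the second Jagged ligand, had 8.40, 7.71, 7.95 and 8.15 in SAH 1 to 4, against 8.10, 8.27, 8.33 and 7.86 in Sham 1 to 4. Both the highest and the lowest value were SAH arrays. The change was -0.09 with an SE of 0.16 and a 95% interval of -0.43 to 0.26 (adjusted p = 0.876, limma).

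**Figure D2:**
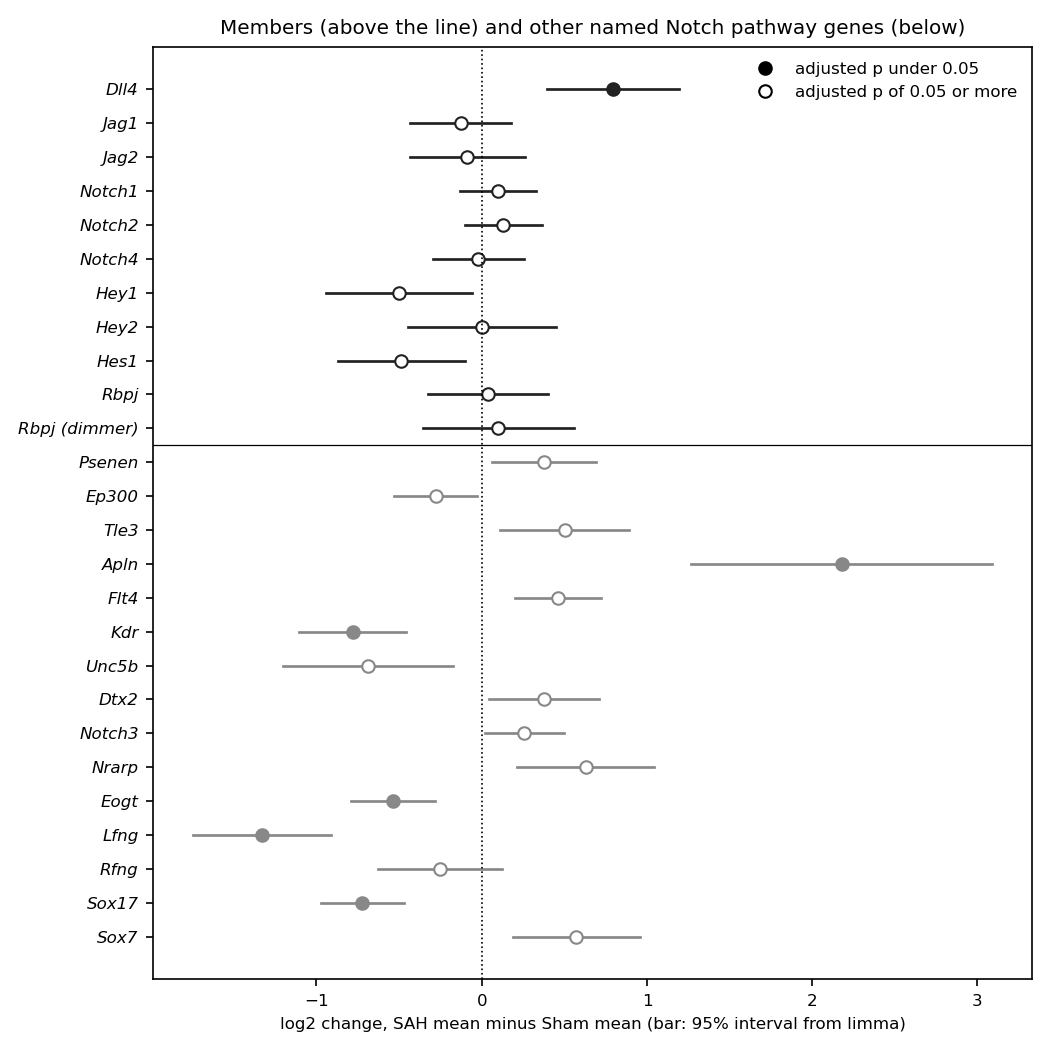
Change after SAH (SAH minus Sham, log2 scale, horizontal axis) of the 11 Notch probe sets, with the 95% interval of limma (n = 4 arrays a group). The interval of Dll4 runs from 0.39 to 1.19, those of Hes1 and Hey1 lie below 0, and those of the other Notch probe sets cross 0.

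The 3 receptors were close to their Sham levels. Notch1, the main Notch receptor of endothelium, averaged 8.42 ± 0.15 in SAH BECs and 8.32 ± 0.07 in Sham BECs (SD, n = 4 each). Its values ran from 8.31 to 8.64 in SAH arrays and from 8.24 to 8.40 in Sham arrays, so that SAH 1 alone stood above every Sham array. The change was 0.10 with an SE of 0.11 and a 95% interval of -0.13 to 0.33.

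Notch2, a receptor shared with many other cell types, averaged 5.57 ± 0.15 in SAH BECs and 5.44 ± 0.08 in Sham BECs (SD, n = 4 each), with values of 5.42 to 5.77 in SAH arrays and 5.36 to 5.56 in Sham arrays. The groups overlapped. The change was 0.13 with an SE of 0.11 and a 95% interval of -0.10 to 0.36 (adjusted p = 0.664, limma).

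Notch4, a receptor found mainly on endothelium, had 8.29, 7.89, 8.10 and 8.26 in SAH 1 to 4, against 8.09, 7.95, 8.33 and 8.24 in Sham 1 to 4. The groups lay on top of each other. The change was -0.02 with an SE of 0.13 and a 95% interval of -0.30 to 0.26 (adjusted p = 0.971, limma).

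Rbpj, the DNA-binding partner of cleaved Notch, had a brighter and a dimmer probe set. The brighter one had 7.62, 7.45, 6.91 and 7.30 in SAH 1 to 4, against 6.98, 7.56, 7.25 and 7.33 in Sham 1 to 4, and both the highest and the lowest value were SAH arrays. Its change was 0.04 with an SE of 0.17 and a 95% interval of -0.33 to 0.40 (adjusted p = 0.955, limma). The dimmer probe set averaged 4.39 ± 0.39 in SAH BECs and 4.29 ± 0.34 in Sham BECs (SD, n = 4 each), near the medians of the arrays, and changed by 0.10 with an SE of 0.21 (adjusted p = 0.892, limma). Neither probe set separated the groups.

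Among the targets, Hes1 and Hey1 had lower means after SAH and Hey2 did not. Hes1, a repressor that many Notch-responsive cells use, had log2 intensities of 7.98, 7.60, 7.75 and 7.31 in SAH 1 to 4, against 7.72, 8.39, 8.34 and 8.13 in Sham 1 to 4. SAH 2 and SAH 4 stood below all Sham arrays, while Sham 1 lay among the SAH arrays. Means were 7.66 ± 0.28 in SAH BECs and 8.15 ± 0.31 in Sham BECs (SD, n = 4 each), a change of -0.49 with an SE of 0.17 and a 95% interval of -0.87 to -0.10 (adjusted p = 0.210, limma). The largest difference without 1 array was -0.63, without Sham 1, and the smallest was -0.37, without SAH 4. Hes1 was not called in any of these fits.

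Hey1, a repressor of arterial endothelium, had 8.55, 7.57, 8.40 and 7.89 in SAH 1 to 4, against 8.51, 8.47, 8.52 and 8.90 in Sham 1 to 4. The 4 Sham arrays lay close together apart from Sham 4, and 3 of 4 SAH arrays stood below all of them. SAH 1 did not. Means were 8.10 ± 0.46 in SAH BECs and 8.60 ± 0.20 in Sham BECs (SD, n = 4 each), a change of -0.50 with an SE of 0.20 and a 95% interval of -0.94 to -0.06 (adjusted p = 0.282, limma). It was -0.65 without SAH 1 and -0.32 without SAH 2, and was not called with any array left out.

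Hey2, which acts beside Hey1 in arteries, had 6.49, 5.57, 5.73 and 5.41 in SAH 1 to 4, against 5.86, 5.56, 5.87 and 5.90 in Sham 1 to 4. SAH 1 stood above every other array and SAH 4 below every other array, and both group means were 5.80. The change had a 95% interval of -0.44 to 0.45 (adjusted p = 0.997, limma), and without SAH 1 it was -0.23.

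The window around the motif in the Hey2 promoter is shown because Hey2 was the Notch gene with a match, at 207 bases before its start, chr10:30842957-30843016 on the minus strand in GRCm38.p6. Capitals mark the motif, which reads GTGGGAA on the opposite strand.
Hey2: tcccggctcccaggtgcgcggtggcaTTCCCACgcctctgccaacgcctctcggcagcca
A match of these letters is a description of the sequence.

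Beside Hes1 and Hey1, the sums of smooth muscle markers were lower after SAH without overlap, and those of astrocyte markers overlapped. Smooth muscle markers summed to 804 to 942 in SAH arrays and 960 to 1135 in Sham arrays, with 0 of 9 called by limma and 2 at an unadjusted p under 0.05, and neuron markers to 273 to 324 in SAH arrays and 382 to 527 in Sham arrays, with 1 of 10 called (Stmn2, lower, which is also on the arterial list) and a median change of 0.02. Without Stmn2 the 9 other neuron markers summed to 181 to 204 in SAH arrays and 177 to 196 in Sham arrays, which overlapped. Astrocyte markers summed to 592 to 878 in SAH arrays and 496 to 658 in Sham arrays, with 0 of 11 called by limma and 2 at an unadjusted p under 0.05. The part of these cells in the values of Hes1 and Hey1 was not tested.

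**Figure D3:**
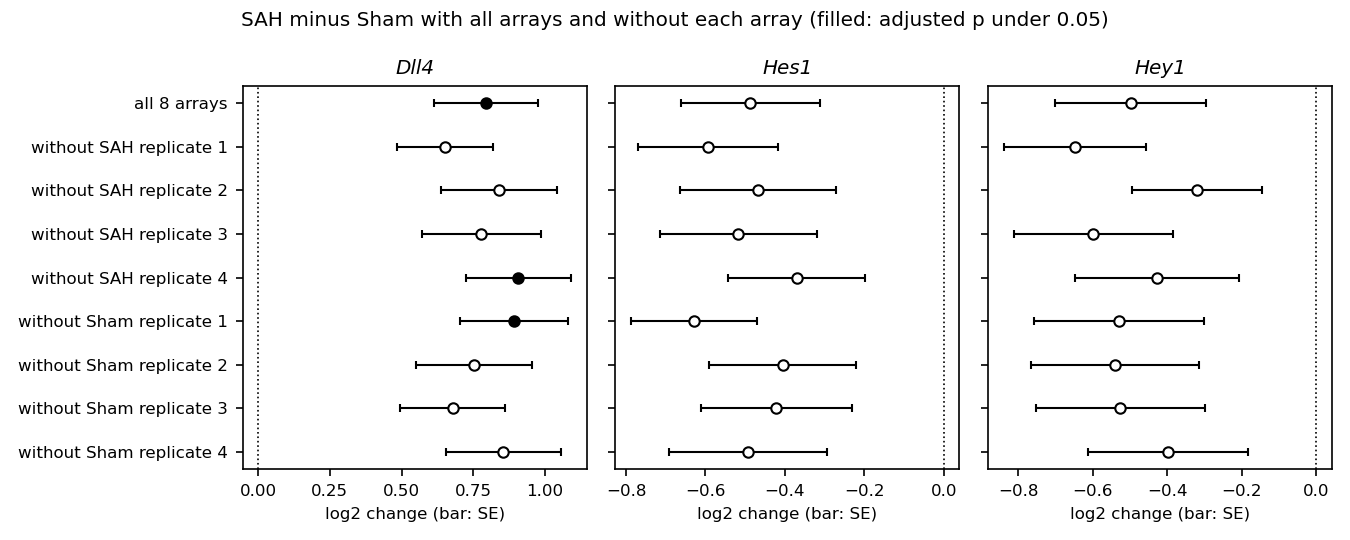
Change after SAH (SAH minus Sham, log2 scale) of Dll4, Hes1 and Hey1 with all 8 arrays and with each array left out in turn. With all 8 arrays the 95% intervals of limma were 0.39 to 1.19, -0.87 to -0.10 and -0.94 to -0.06, in that order. Dll4 stays between 0.65 and 0.91, Hes1 between -0.63 and -0.37 and Hey1 between -0.65 and -0.32.

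The rest of the pathway was read from 94 further genes, of which 90 were measured. Of these, 1 rose (Apln) and 4 fell (Lfng, Eogt, Kdr and Sox17), or 1.11% higher and 4.44% lower, beside 1.90% and 1.28% of all probe sets tested. An unadjusted p under 0.05 was found for 17 genes, or 18.9%, and groups that do not overlap for 8 genes, or 8.89%. The median change of the 90 genes was -0.04. The methods' t-test called 0 of them after adjustment.

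The receptor glycosylation genes held 2 of the 4 that fell, out of 8 measured. Lfng encodes lunatic fringe, a Golgi enzyme that lengthens sugars on Notch and thereby favours signalling by Delta-like ligands over Jagged ligands. It had log2 intensities of 6.39, 6.37, 6.07 and 6.61 in SAH 1 to 4, against 7.61, 8.20, 7.72 and 7.22 in Sham 1 to 4. All SAH arrays stood below all Sham arrays, and the lowest Sham array was Sham 4.

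Lfng averaged 6.36 ± 0.22 in SAH BECs and 7.69 ± 0.40 in Sham BECs (SD, n = 4 each), a change of -1.33 with an SE of 0.19, to 39.8% of Sham (adjusted p = 0.00366, limma). It kept its call with each of the 8 arrays left out, with changes of -1.48 to -1.16. Lfng kept it in 11 of 13 other settings, described below. Its relatives Mfng and Rfng did not pass the test, and Rfng changed by -0.25 with an SE of 0.17 (adjusted p = 0.585, limma). The Lfng window is shown because Lfng changed most of the genes that fell, and its promoter held the motif in capitals, 109 bases before the start, chr5:140607206-140607265 on the plus strand in GRCm38.p6.
Lfng: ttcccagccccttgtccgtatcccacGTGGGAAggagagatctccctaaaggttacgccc

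Eogt, which adds N-acetylglucosamine to domains of Notch receptors, had 10.01, 10.32, 10.16 and 10.36 in SAH 1 to 4, against 10.60, 10.76, 10.93 and 10.71 in Sham 1 to 4. The groups did not overlap, though the gap between SAH 4 and Sham 1 was small. Its change was -0.53 with an SE of 0.12, to 69.0% of Sham (adjusted p = 0.0316, limma). Eogt lost the call without SAH 1 (-0.47), SAH 3 (-0.52), Sham 2 (-0.53), Sham 3 (-0.47) or Sham 4 (-0.55).

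Genes that Notch lowers in endothelium moved both ways, with 1 of 8 higher and 1 of 8 lower. Apln, the peptide ligand apelin of tip cells, had 7.83, 6.91, 7.84 and 6.69 in SAH 1 to 4, against 6.12, 5.19, 3.89 and 5.36 in Sham 1 to 4. Every SAH array stood above every Sham array, and Sham 3 lay furthest below. Apln averaged 7.32 ± 0.61 in SAH BECs and 5.14 ± 0.93 in Sham BECs (SD, n = 4 each), a change of 2.18 with an SE of 0.41, or 4.53-fold (adjusted p = 0.0165, limma). It lost the call without SAH 1 (2.01) or SAH 3 (2.00).

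Kdr encodes the VEGF receptor whose level DLL4 restrains in stalk cells. It had 8.70, 8.98, 8.47 and 8.71 in SAH 1 to 4, against 9.72, 9.69, 9.20 and 9.37 in Sham 1 to 4, and the groups did not overlap. The change was -0.78 with an SE of 0.15, to 58.3% of Sham (adjusted p = 0.0163, limma), and the call was lost without SAH 3 (-0.70) or Sham 2 (-0.72). Of the 4 genes that fell, Lfng and Kdr had a promoter in the table. The Kdr window is shown beside that of Lfng because it too held the motif, in capitals 129 bases before the start, chr5:75978551-75978610 on the minus strand in GRCm38.p6.
Kdr: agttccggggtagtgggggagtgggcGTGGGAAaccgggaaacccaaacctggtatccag
Of the other pathway genes named here, 12 had a promoter in the table and 3 held a motif, Lfng, Kdr and Psenen, the last of which did not fall. Psenen had 2 promoters, of which 1 held a motif. The share over all promoters, counted by promoter and not by gene, was 9.01%. Ep300, Unc5b and Rfng had lower means after SAH without a call, and their promoters held no motif.
Flt4, a VEGF receptor of the same family, was the gene of this list that came nearest to a call without passing it, with a change of 0.46 and an SE of 0.12 (adjusted p = 0.0647, limma). All 4 SAH arrays stood above all 4 Sham arrays. Flt4 passed in 1 of the 8 fits with an array left out, without Sham 1 at 0.54, and was 0.40 without Sham 2.

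Of 10 upstream regulators, 1 fell. Sox17, a transcription factor of arterial endothelium that acts upstream of Notch, had 8.32, 8.58, 8.50 and 8.45 in SAH 1 to 4, against 8.96, 9.30, 9.35 and 9.12 in Sham 1 to 4. The groups were well apart. The change was -0.72 with an SE of 0.12, to 60.6% of Sham (adjusted p = 0.00628, limma). The call held with each of the 8 arrays left out and in 11 of 13 other settings, described below. Sox7, a relative of the same SoxF group, changed by 0.57 with an SE of 0.18 and did not pass (adjusted p = 0.131, limma).

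**Figure D4:**
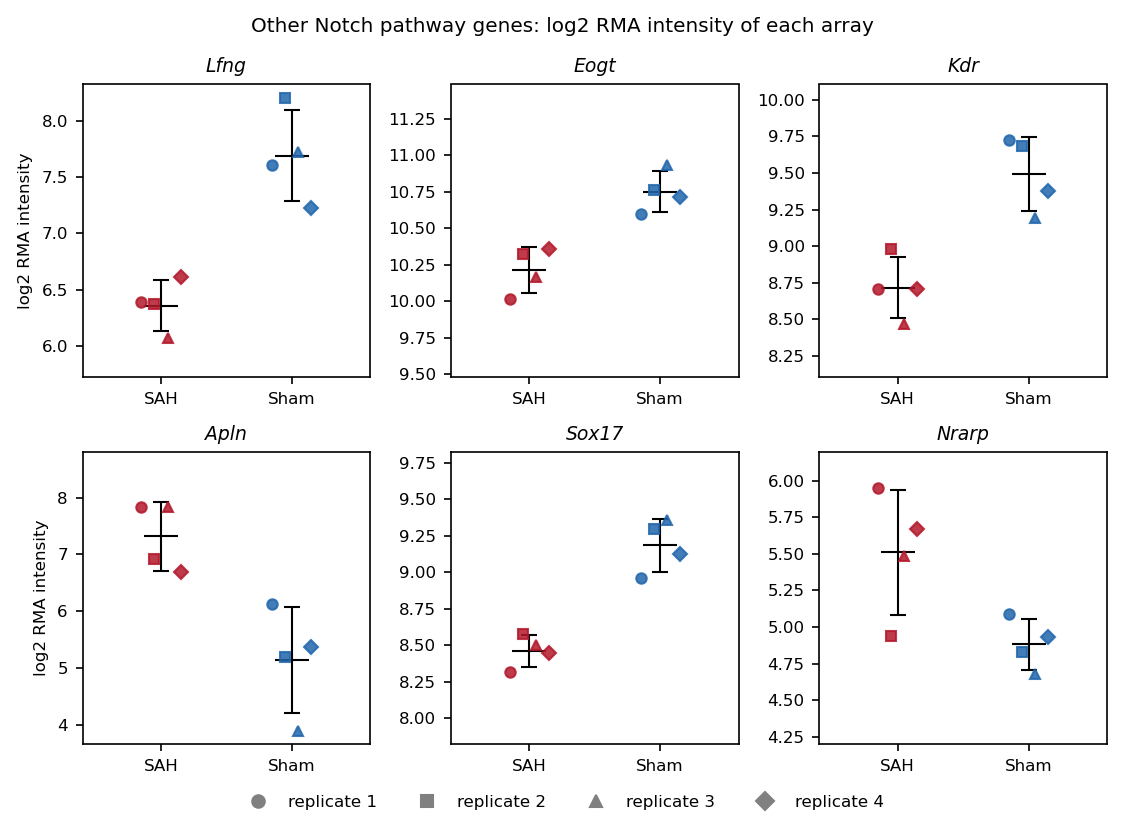
RMA intensity on the log2 scale (vertical axes) of Lfng, Eogt, Kdr, Apln, Sox17 and Nrarp in the 4 SAH (left) and 4 Sham arrays (right), with group means and SD. The groups do not overlap for the first 5 genes, while Nrarp has 1 SAH array among the Sham arrays.

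No gene of the remaining 7 lists passed the test in limma, and 9 of their 64 genes, or 14.1%, had an unadjusted p under 0.05, the same share as over all probe sets. Among 9 further targets Nrarp, which encodes a Notch-induced protein that limits Notch signalling, had 5.95, 4.94, 5.48 and 5.67 in SAH 1 to 4, against 5.09, 4.83, 4.68 and 4.93 in Sham 1 to 4. It had 3 of 4 SAH arrays above all Sham arrays, while SAH 2 lay among the Sham arrays. The change was 0.63 with an SE of 0.19 (adjusted p = 0.123, limma). Nrarp passed in 1 of the 8 fits with an array left out, without SAH 2 at 0.82, and was 0.48 without SAH 1.

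Of the 6 genes that Notch raises in endothelium, which include Efnb2, Gja4 and Gja5, 0 were called and the median change was -0.02. Unc5b, a netrin receptor of tip cells and arteries, lay furthest from Sham, with a change of -0.69 and an SE of 0.23 (adjusted p = 0.183, limma). It passed in 1 of the 8 fits with an array left out, without Sham 3 at -0.91, and was -0.49 without Sham 2. The 6 genes that are other ligands or Notch3 had a median change of -0.03. Notch3, a receptor of pericytes and smooth muscle, changed by 0.26 with an SE of 0.11, and its SAH arrays, at 6.43 to 6.78, lay above its Sham arrays, at 6.19 to 6.35 (adjusted p = 0.302, limma).

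Genes of the machinery that handles receptors and target genes held no gene called by limma, and 6 at an unadjusted p under 0.05. Median changes were -0.01 over 11 genes of ligand and receptor endocytosis, 0.06 over 9 genes of cleavage, -0.13 over 11 coactivators and turnover genes and -0.08 over 12 corepressors. The genes furthest from 0 were Dtx2, a ubiquitin ligase of the Deltex family, at 0.38, Psenen, a subunit of gamma-secretase, at 0.38, the coactivator Ep300 at -0.28 and the corepressor Tle3 at 0.50. Their adjusted p in limma ran from 0.200 for Tle3 to 0.288 for Ep300.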

How the data were processed

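Gene expression of CD45-CD31+ BECs was measured in 4 SAH and 4 Sham mice, 1 array per animal. The spread behind the p-values is that between arrays, in which animal, isolation, amplification and hybridization cannot be told apart. RNA was amplified with the Ovation Pico WTA System V2. The authors normalized the intensities by RMA, which corrects background, equalizes the distributions of arrays and summarizes probes, with the package oligo in R 3.2.2, and deposited log2 values. RMA draws dim probe sets together. These values were used as they stand.

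The platform annotation gave the gene names: 23521 probe sets had 1 symbol, 1820 had several and 16004 had none. The 11 Notch probe sets were matched to RefSeq by gene ID. Some listed genes are not reported here. The difference between SAH and Sham was tested by limma 3.58.1 (R 4.3.3) at an adjusted p of 0.05, adjusting by Benjamini-Hochberg across the 25341 probe sets with a symbol. The script was first tested on simulated data. The methods' t-test, run here with equal variances on the deposited values, called 86 probe sets after adjustment. These are fewer calls than the paper reports, for a reason that was not tested, so its results here are those of this run. That t-test stands beside limma, with other scalings, filters and blocks, and with each array left out. Where a listed gene had more than 1 probe set, the brightest stood for it. Of the pathway lists, genes past the threshold and the furthest gene of each list not past it were named. Marker genes and Mfng, given as examples, were chosen after their values were seen. The Notch genes and all lists were chosen with earlier results of these data known. The number of arrays limits the precision. Promoters were those of RefSeq for GRCm38.p6, and Hey1, Hes1, Eogt, Sox17 and Sox7 had none in the table used here.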

Additional observations from a re-analysis of the deposited data

Results flagged for a closer look

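In 4 of 52 groups of 4 arrays, covering the named genes, the highest or lowest array lay further from the others than Dixon's 95% critical value allows for the group's range, which chance does in about 1 group in 20. Hey1 was 8.90 in Sham 4, with the next Sham array at 8.52, and its change was -0.40 without that array. Hey2 was 5.56 in Sham 2, with the next Sham array at 5.86. Unc5b was 5.70 in SAH 4, with the next SAH array at 6.07. Notch3 was 6.78 in SAH 1, with the next SAH array at 6.48. No array appeared more than once among these.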

How the results depend on the processing

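Dll4 kept its direction under all alternatives and its call under 7 of the 13 that do not leave out single arrays (adjusted p in limma 0.0182 to 0.140 and 0.216 in the methods' t-test). The call was lost, so that 0 Notch genes were higher, with that t-test, with cyclic loess (0.77, adjusted p = 0.0503), over all probe sets of the table (0.140), with 16 added to linear intensities (0.75, 0.0782) and with a block on the number in the sample description (0.72, 0.116). That block takes nothing from SAH 2 and Sham 3, whose numbers occur in 1 group only. With these arrays left out and no block, a setting chosen after seeing the data, Dll4 was again 0.72 (adjusted p = 0.130, limma), so 0 Notch genes were higher, and 2 other pathway genes were higher, 3 lower and 456 probe sets called. With each array left out 0 to 1 Notch genes were higher, with Dll4 at 0.65 to 0.91, and 0 Notch genes were lower under every alternative. Of the other pathway genes, 1 higher and 4 lower became 0 and 0 with the t-test, 0 and 2 over all probe sets, 2 and 4 above the table median or above log2 6, 2 and 2 with the block on the description number, 1 and 2 without both arrays numbered 4, a setting chosen after seeing the data, and 0 to 2 and 2 to 4 with each array left out. With the block on the description number the higher genes were Apln and Nrarp, and the lower ones Kdr and Unc5b, which the main fit did not call. Lfng, Sox17 and Eogt lost their calls with this block (adjusted p = 0.0699, 0.0566 and 0.151, limma). Of all probe sets, 807 became 86, 353, 275 and 506 under the t-test, over all probe sets, with that block and without both arrays numbered 4, and 471 to 684 with each array left out.

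Changes near 0 turned sign. Jag2 was 0.090, Notch4 0.12 and Rbpj -0.015 with the block on the description number and also with no block when SAH 2 and Sham 3 were left out, and Hey2 was -0.028 with array weights. With each array left out Jag2 ranged from -0.20 to 0.027, Notch4 from -0.089 to 0.061, Hey2 from -0.23 to 0.13, Rbpj from -0.062 to 0.17 and its dimmer probe set from -0.033 to 0.24. Other scalings moved the median of all probe sets to between -0.01 and 0.00. The cause of these differences was not tested.

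The labels do not state that numbers pair the animals. The methods have 2 isolates a day, mostly 1 of each group, but do not tie days to arrays. Deviations of same-numbered SAH and Sham arrays correlated between -0.06 and 0.03 by the number in the title and between -0.06 and 0.02 by that in the description. By the title number 0 of 8 arrays correlated best with their own number. By the description number none of the arrays with a partner did, and SAH 2 and Sham 3 had no partner. A replicate block on the title number gave 1 Notch gene higher (Dll4 0.79, adjusted p = 0.0354), 1 other pathway gene higher and 3 lower, and 627 probe sets called.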
